A study of Mus musculus with 12 samples.

Results

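The comparison described here is the adipogenic differentiation of wild-type (WT) mouse embryonic fibroblasts, read as the array signal of differentiated minus undifferentiated WT cells. It takes the 6 WT samples of a series of 12, 3 undifferentiated and 3 differentiated, and covers all 19938 genes that had a probe set of their own. The fibroblasts came from embryos of C57BL6 mice at embryonic day 14. Undifferentiated WT cells were untreated cultures of the same kind in medium with 10% serum. Differentiated WT cells were taken 2 days past confluence into a cocktail of dexamethasone (1 µM), isobutylmethylxanthine (500 µM), insulin (5 µg/ml) and troglitazone (15 µM) for 2 to 3 days. Insulin and troglitazone alone followed for 2 days, and then plain medium with 10% serum until harvest. The confluence and days in culture of the undifferentiated cells are not given, so these cannot be told apart from the treatment. The other 6 samples were the same 2 states of D1D2KO cells, labelled as deficient in the triacylglycerol-forming enzymes DGAT1 and DGAT2. Their responses are described only at the end, but they entered the same fit and share the estimate of spread behind every SE and p-value. The samples are called biological replicates, but no embryo or culture is given for any of them, so each p-value measures the spread between these samples.

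Adipogenesis is the conversion of a fibroblast-like precursor into a cell that stores triacylglycerol in lipid droplets. In culture it is started by hormones. Dexamethasone acts on the glucocorticoid receptor, isobutylmethylxanthine raises cyclic AMP, insulin acts through the insulin and insulin-like growth factor (IGF) receptors, and troglitazone is a ligand of the nuclear receptor PPAR gamma. PPAR gamma and the C/EBP factors then switch on the genes of lipid uptake, synthesis and release, while genes of the fibroblast and its matrix are turned down.

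Levels are given as the deposited log2 array signals. A difference is the mean of the 3 differentiated samples less that of the 3 undifferentiated ones, and SE is its standard error from limma. A difference of 1 is a 2-fold change of signal, and a gene said to stand at a signed value has that difference. A gene is said to have risen or fallen where its limma p-value, adjusted by the Benjamini-Hochberg method over 19938 genes, was under 0.05. By that rule 14.7% of all genes rose and 19.4% fell, so a gene list must be read against those shares. The median difference over all genes was 0.02. A rise of at least 2-fold was found for 2.6% of genes and a fall of at least 2-fold for 1.99%. A level is a probe set's own signal and is not compared between genes.

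The 3 differentiated samples were less alike than the 3 undifferentiated ones, and differentiated replicate 2 stood apart. The median standard deviation of a gene was 0.118 in the differentiated and 0.088 in the undifferentiated group. Differentiated replicate 2 lay more than 0.5 below both other differentiated samples in 112 genes and more than 0.5 above both in 118. For replicate 1 the counts were 35 and 93, and for replicate 3 they were 33 and 24. Of the 519 genes that rose at least 2-fold, replicate 2 was the lowest by that margin in 33, replicate 1 in 1 and replicate 3 in 0.

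Genes of lipid synthesis and of inflammation were among those behind this gap. They were picked after their values were seen, and other such genes, among them Sorl1 and Fmo2, belong to neither theme. Acss2, which makes acetyl-CoA from acetate for lipid synthesis, read 7.17, 7.19 and 7.22 in undifferentiated cells and 11.32, 10.11 and 11.47 in differentiated replicates 1, 2 and 3. Elovl3, an elongase of very long fatty acids, read 7.64, 6.35 and 8.15 in the differentiated samples, against 3.14 to 3.82 before. The sterol enzyme Lss read 9.06, 8.04 and 9.19, so replicate 2 was close to the undifferentiated samples at 7.96 to 8.01. Over 33 measured genes of lipid and sterol synthesis, the mean log2 signal was 9.52 in replicate 2 against 9.85 and 9.91 in the other two, and 8.24 to 8.27 in undifferentiated cells. Inflammatory signals went the other way. Cxcl5, a neutrophil chemokine, read 7.74 in replicate 2 and 6.21 and 5.94 in the others, against 6.92 to 7.11 before. Il6, the interleukin-6 gene, read 4.31 against 3.16 and 3.38, and did not pass the test with all samples (0.55; limma, adjusted p = 0.0558). These readings lie under the lowest quartile of array signal, cut between 4.41 and 4.56, so the changes of Il6 are uncertain. The difference of Il6 was 0.20 (limma, adjusted p = 0.303) without replicate 2. It passed after median centring (adjusted p = 0.0451), with a trended eBayes (0.0457), with a replicate block (0.00302), and without undifferentiated replicate 2 (0.0216), differentiated replicate 1 (0.0084) or differentiated replicate 3 (0.0446). Without replicate 2 the difference of Cxcl5 moved from -0.41 (limma, adjusted p = 0.355) to -0.96 (adjusted p = 0.000451), that of Lss from 0.79 to 1.15, and that of Fmo2 from -0.90 to -0.57. The call of Lss was lost when any single one of the other 5 WT samples was left out. The count of genes that rose or fell was 6794 with replicate 2 and 6778 without it, of which 6039 were called in both with the same sign. Whether replicate 2 differed in the extent of conversion, in medium or in handling was not tested.

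**Figure D1:**
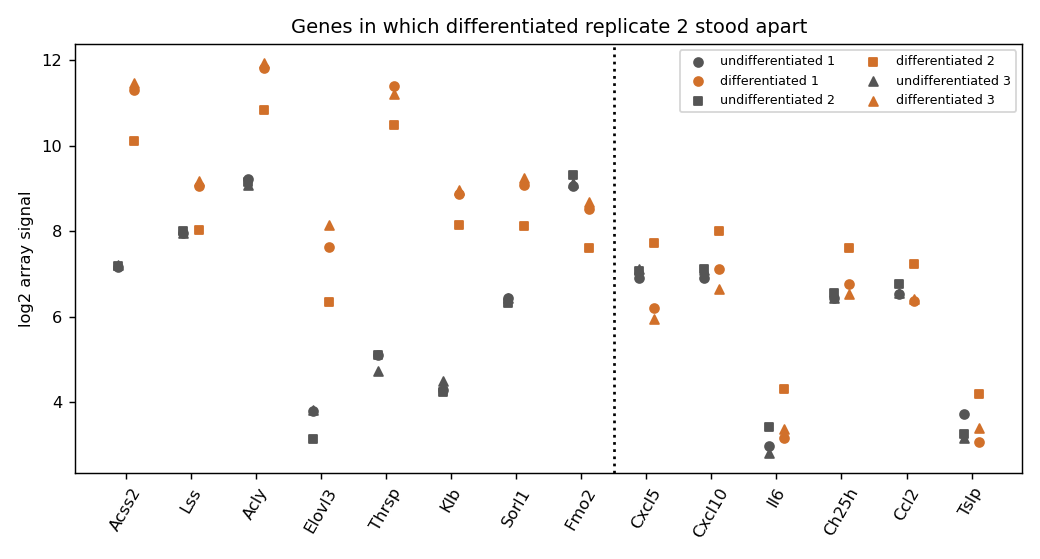
Log2 array signals of 14 genes in the 6 WT samples, undifferentiated in grey and differentiated in orange, with a marker shape for each replicate number. Left of the dotted line differentiated replicate 2 (square) lies below the other two differentiated samples, as for Acss2 at 10.11 against 11.32 and 11.47, and right of it above them, as for Cxcl5 at 7.74 against 6.21 and 5.94.

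The response was lopsided in size. Of the 2934 genes that rose, 519 did so at least 2-fold, 168 at least 4-fold, 58 at least 8-fold, 27 at least 16-fold and 10 at least 32-fold. Of the 3860 that fell, 397 fell at least 2-fold, 27 at least 4-fold, 3 at least 8-fold and 0 at least 16-fold. The median of the rises was 0.47 and that of the falls -0.47. Most of the large rises were not of genes near the bottom of the array: 30 of the 519 began in the lowest quartile of signal on all 3 undifferentiated arrays, and 13 of the 168. The quartile cut lay between 4.41 and 4.56. A probe set near its floor understates a change, so the folds of those genes are uncertain. In 6552 of the 6794 genes the 3 differentiated samples lay wholly above or below the 3 undifferentiated ones. Over all 19938 genes this held for 8752, so separate groups were common among uncalled genes too.

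**Figure D2:**
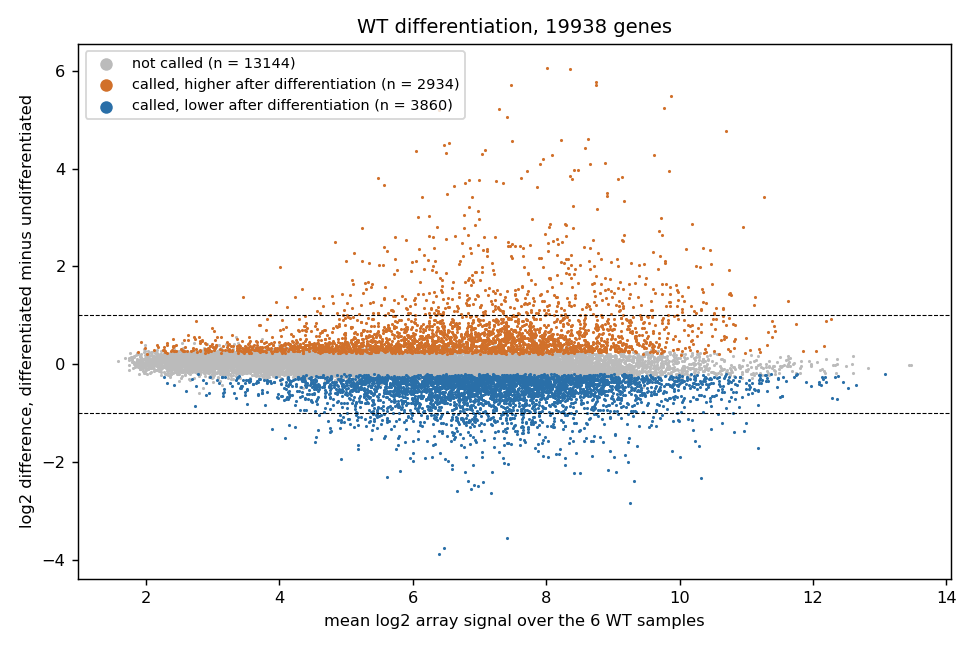
Log2 difference (differentiated minus undifferentiated WT cells) of 19938 genes against their mean log2 array signal over the 6 WT samples. Genes that rose (2934) are orange, genes that fell (3860) blue and the rest grey, and the dashed lines mark a 2-fold change. The rises reach 6.05 while the deepest fall is -3.89.

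The largest rises were those of fat-cell products and of the enzymes that make and pack triacylglycerol. Adipoq, the adiponectin gene, read 5.43, 5.46 and 5.12 before and 11.34, 11.40 and 11.35 after differentiation, and Thrsp, a lipogenic regulator, read 5.11, 5.10 and 4.74 before and 11.40, 10.49 and 11.22 after. Only genes whose groups did not overlap could enter the 25 largest rises, and the smallest of the 25 was 4.11. Gpd1, at 5.71, Lrg1, at 5.71, and Slc36a2, at 5.06, were also among them. Agpat2, which adds the middle fatty acid to the glycerol backbone, went from 7.47, 7.55 and 7.42 to 11.77, 11.45 and 12.06, a rise of 4.28 (SE 0.12; 19.4-fold; limma, adjusted p = 4.35e-14). Dgat2, which adds the last one, went from 5.94, 5.98 and 5.95 to 10.28, 9.86 and 10.53, a rise of 4.27 (SE 0.13; adjusted p = 1.13e-13). Dgat1, the other enzyme of that step, rose less, by 2.46 (SE 0.11).

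Coats of the lipid droplet and its lipases rose beside them. Plin1, which guards the droplet surface, rose by 4.58, Cidec, which fuses droplets, by 4.56, and Adig, a small droplet-linked protein of fat cells, by 4.30 (SE 0.09). Pnpla2, the first lipase of the droplet, read 6.51, 6.57 and 6.38 before and 10.26, 10.24 and 10.30 after, with little spread inside either group. G0s2, the protein that holds Pnpla2 back, rose by 4.10 (SE 0.10), beside a rise of 3.78 (SE 0.08) for the lipase itself. Both were among the 10 rises with the largest moderated t.

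Receptors, carbonic anhydrases and secreted proteins filled much of the rest. Tshr, the receptor for thyrotropin, read 4.26, 4.38 and 4.18 before and rose by 4.53 (SE 0.13; 23.1-fold). Acvr1c, an activin receptor also called ALK7, rose by 4.48 (SE 0.10), and Klb, the co-receptor for the hormone FGF21, by 4.32 (SE 0.17). Car3 and Car5b, which interconvert carbon dioxide and bicarbonate in the cytosol and in mitochondria, rose by 4.77 (SE 0.13) and 4.11 (SE 0.11). Pcx, the mitochondrial pyruvate carboxylase that uses bicarbonate, rose by 4.60 (SE 0.15). Apoc1, an apolipoprotein, rose by 4.37, Agt, the angiotensin precursor, by 4.20, the aldehyde dehydrogenase Aldh1a7 by 4.43 and the ethanol-oxidising P450 Cyp2e1 by 4.36. Cyp2e1 began at 3.76 to 3.92, Tshr at 4.18 to 4.38 and Acvr1c at 4.12 to 4.38, all under the lowest quartile cut, so their folds are uncertain.

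The largest falls held receptors, matrix proteins and genes known from glia and myeloid cells. Npy1r, a neuropeptide Y receptor, read 8.30, 8.36 and 8.36 before and 4.59, 4.37 and 4.38 after. Lepr, the leptin receptor, read 8.37, 8.30 and 8.35 before and 4.63, 4.52 and 4.59 after, a fall of 3.76 (SE 0.09; 13.6-fold lower; limma, adjusted p = 5.58e-15). Both groups were tight and far apart, and both genes ended near the lowest quartile cut. Lep, which encodes the hormone leptin, moved the opposite way to its receptor, from 3.81, 3.94 and 3.76 to 6.40, 6.51 and 6.98 (2.79, SE 0.12).

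Among matrix genes, the fall of the collagenase Mmp13 was -2.64 (SE 0.16), of the testican Spock3 -2.59, of the EGF-repeat protein Egfl6 -2.49, of the collagen Col14a1 -2.39 and of the calcium-binding Smoc2 -2.16. Signals between cells fell as well: the Notch-binding Dner at -2.47, the endothelin receptor Ednrb at -2.40, the orphan receptor Gpr165 at -2.38, the guidance cue Sema3c at -2.23 and the semaphorin receptor Plxnc1 at -2.07. The urea transporter Slc14a1 fell from 8.14, 8.14 and 8.18 to 5.70, 5.42 and 5.67, and the water channel Aqp4 stood at -2.21. Steroid and prostaglandin handling was represented by Akr1c14 at -2.83, the prostaglandin dehydrogenase Hpgd at -2.20 and the progesterone receptor Pgr at -2.07. The last of these fell with the oestrogen receptor gene Esr1 (-1.37, SE 0.10). The remaining members of the 25 were C1qtnf3, a relative of adiponectin (-2.23), the kinase Nrk (-2.07), Brinp3 (-2.30), the glycosyltransferase B4galnt2 (-2.19), and the myeloid and glial genes Clec4n, Lyz2, Gfap and Fabp7, which belong to the cell-type markers.

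**Figure D3:**
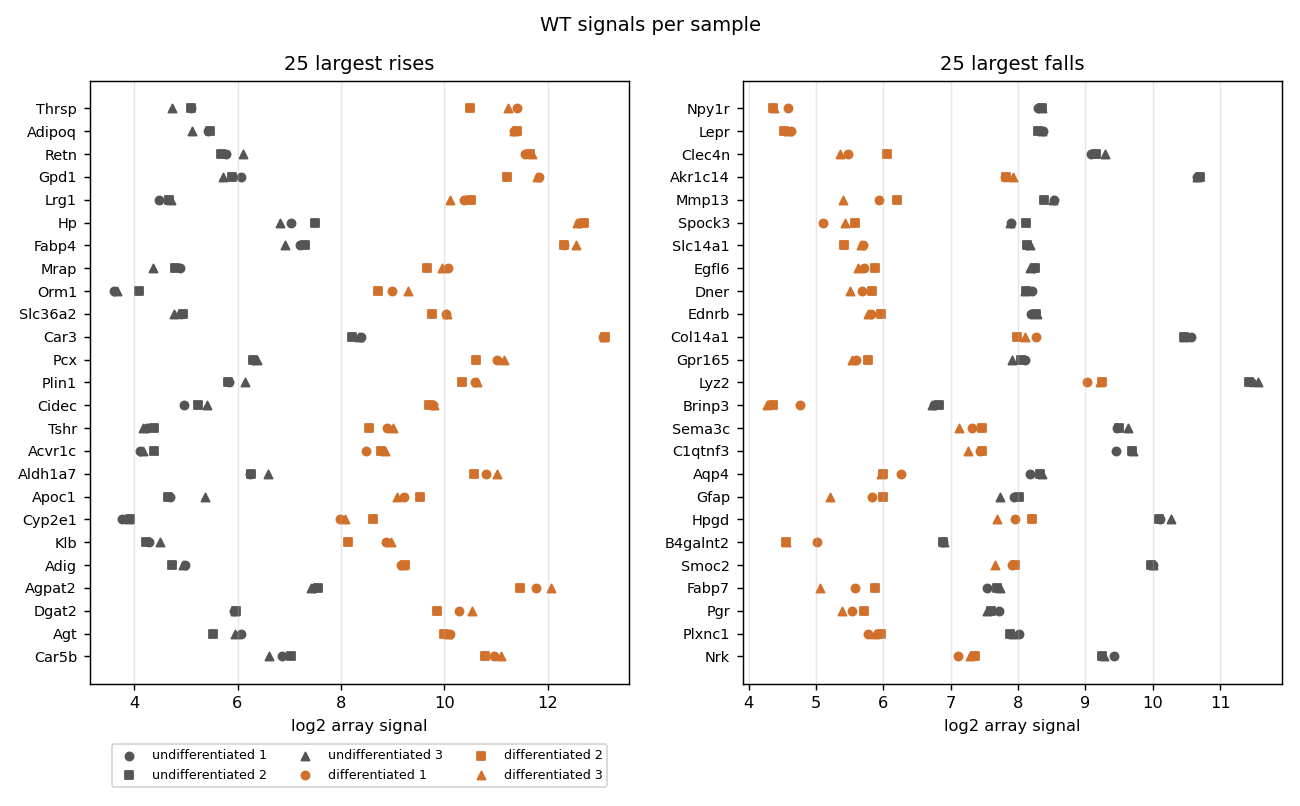
Log2 array signals of the 25 genes with the largest rises (left) and the 25 with the largest falls (right) in WT differentiation. Each point is 1 sample, grey for undifferentiated and orange for differentiated, with a marker shape for each replicate number. Only genes with the 2 groups apart could enter, as Lepr at 8.30 to 8.37 against 4.52 to 4.63.

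Among 32 measured transcription factors with known roles in adipogenesis, most of them promoting it, 16 rose and 7 fell, with a median difference of 0.23. Pparg read 6.28, 6.63 and 6.55 before and 10.36, 10.39 and 10.62 after, a rise of 3.97 (SE 0.10; 15.7-fold; limma, adjusted p = 2.14e-14). Cebpa, its partner, rose from 6.92, 6.81 and 6.89 to 9.11, 9.34 and 9.11 (2.31, SE 0.10). Factors of lipid synthesis followed: the oxysterol receptor Nr1h3 by 2.63, the carbohydrate-response factor Mlxipl by 2.23 and the sterol-response factor Srebf1 by 2.03. Factors of the early wave had smaller values at harvest. Cebpb rose by 0.62 (SE 0.09), and Cebpd differed by 0.11 (SE 0.11; adjusted p = 0.465), with overlapping groups. The glucocorticoid receptor gene Nr3c1, at -0.09 (adjusted p = 0.478), did not pass the test. The largest fall in the list was that of Zfp521 (-0.78, SE 0.08), a zinc-finger protein that opposes the entry of precursors into the lineage.

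Factors and cofactors known to restrain adipogenesis did not move as a block. Of 31 measured, 6 rose and 11 fell, with a median of -0.11. Lef1, a DNA-binding partner of beta-catenin, rose by 0.80 (SE 0.10), the stress factor Ddit3 (CHOP) by 0.73 and the repressor Snai1 by 0.66. The Notch target Hes1 fell and stood at -0.68 (SE 0.10), Snai2 at -0.62 and the corepressor Runx1t1 at -0.47.

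Genes known to be induced by glucocorticoids rose more often than not. Of 20 measured, 13 rose and 1 fell, and 11 rose at least 2-fold, with a median of 1.31. Zbtb16 (PLZF) rose by 2.21 (SE 0.13), Fkbp5, a co-chaperone of the glucocorticoid receptor, by 1.42, and the metallothioneins Mt2 and Mt1 by 1.41 and 1.37. Tsc22d3 (GILZ), at 0.19, and Dusp1, at 0.11, did not pass the test, and the kinase Sgk1 fell by 0.42. Several of those that rose most, among them Lcn2 (2.96), Pdk4 (2.63) and Angptl4 (2.45), are also genes of fat cells. Hsd11b1, which regenerates active glucocorticoid, rose from 5.10, 5.25 and 5.11 to 6.37, 6.64 and 6.23.

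Promoter sequence was set beside these changes because C/EBP factors bind known DNA elements. RefSeq windows of GRCm38.p6 that run from 250 bases before to 50 bases after a start site were matched for 15563 of the 19938 genes, 19116 windows in all. The palindrome TTGCGCAA, the ideal C/EBP element, stood in 0.23% of all windows and in 0.592% of the windows of genes that rose at least 2-fold, which were those of Lep, Orm2 and Rpia. The looser TTGCNNAA, searched on both strands and containing the palindrome, stood in 9.76% of all windows, 12.8% of those of genes that rose at least 2-fold, 17.8% of those that rose at least 4-fold and 11.1% of those that fell at least 2-fold. Median GC content was 57.7%, 59.3%, 59.7% and 54.7% in the same order. A match is a description of the letters and not evidence of binding. Below are the 250 bases before the start, 5′ to 3′ along the gene, with matches to the palindrome in capitals.
Lep: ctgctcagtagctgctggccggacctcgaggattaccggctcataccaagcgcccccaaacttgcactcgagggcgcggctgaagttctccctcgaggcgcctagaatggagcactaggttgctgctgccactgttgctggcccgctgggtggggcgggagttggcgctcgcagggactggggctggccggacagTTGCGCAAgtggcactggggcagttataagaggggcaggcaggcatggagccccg
Orm2: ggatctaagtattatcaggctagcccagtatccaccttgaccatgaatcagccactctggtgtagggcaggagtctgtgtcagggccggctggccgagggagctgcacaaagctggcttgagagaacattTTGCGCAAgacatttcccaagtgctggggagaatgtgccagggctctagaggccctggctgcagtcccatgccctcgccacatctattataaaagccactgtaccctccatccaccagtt
Rpia: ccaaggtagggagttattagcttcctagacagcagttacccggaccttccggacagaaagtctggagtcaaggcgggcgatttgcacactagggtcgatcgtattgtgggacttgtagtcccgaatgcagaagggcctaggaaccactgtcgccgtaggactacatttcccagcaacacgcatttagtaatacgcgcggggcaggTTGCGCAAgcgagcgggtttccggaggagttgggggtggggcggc

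These windows lie at chr6:29059971-29060220 on the plus strand for Lep, chr4:63362199-63362448 on the plus strand for Orm2 and chr6:70792176-70792425 on the minus strand for Rpia. The match begins 55, 120 and 45 bases before the start. Orm2, an orosomucoid of the acute-phase response, rose by 2.60 (SE 0.15), and Rpia, which makes ribose 5-phosphate in the pentose phosphate pathway, by 1.26 (SE 0.09). Of genes that rose at least 4-fold, 5 had more than 1 match to TTGCNNAA before a start, with 1 chromosome left out of this count. The windows of the pair with the largest rises are shown with those matches in capitals.
Plin1: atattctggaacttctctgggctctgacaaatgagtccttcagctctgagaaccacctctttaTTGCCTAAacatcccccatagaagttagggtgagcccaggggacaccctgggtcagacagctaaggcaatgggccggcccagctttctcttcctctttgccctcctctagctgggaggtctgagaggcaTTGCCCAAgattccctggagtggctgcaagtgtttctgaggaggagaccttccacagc
Pparg: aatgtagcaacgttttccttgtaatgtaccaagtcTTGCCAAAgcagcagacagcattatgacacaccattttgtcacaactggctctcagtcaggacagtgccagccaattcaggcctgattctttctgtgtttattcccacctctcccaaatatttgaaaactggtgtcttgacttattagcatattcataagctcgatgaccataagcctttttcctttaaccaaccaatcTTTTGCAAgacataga

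The Plin1 window lies at chr7:79732777-79733026 on the minus strand and the Pparg window, at 1 of the RefSeq starts of that gene, at chr6:115421816-115422065 on the plus strand. The Plin1 matches begin 187 and 58 bases before the start and the Pparg matches 215 and 16 bases before it. The direct repeat of AGGTCA with 1 base between, the element of PPAR gamma with its partner RXR, stood in 0.0418% of all windows and in 0 of those of genes that rose at least 2-fold. A single AGGTCA stood in 14.2% of all windows, 15.8% of those of genes that rose at least 2-fold, 20.4% of those that rose at least 4-fold and 11.3% of those that fell at least 2-fold. Sites farther from the start were not searched.

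Of 39 measured adipokines and other secreted products of fat cells, 20 rose and 12 fell. The carrier of retinol Rbp4 rose from 7.10, 7.33 and 7.04 to 10.70, 10.46 and 10.83 (3.51, SE 0.10), and Lcn2, which binds bacterial iron carriers, rose to 8.49, 8.45 and 8.46 from 5.45 to 5.59. Several adiponectin relatives did not follow Adipoq. C1qtnf3 fell and stood at -2.23, C1qtnf7 at -1.66, C1qtnf2 at -1.64 and C1qtnf6 at -0.59, and C1qtnf9, at 0.15, did not pass the test. C1qtnf1 and C1qtnf12 were measured too and are not described here. Of 20 measured complement genes, 4 rose and 11 fell, among them C4b at 1.16 (SE 0.09) and the complement inhibitor Cd55 at -1.55 (SE 0.15).

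Receptors of fat-cell hormones were exchanged rather than shifted together: of 39 measured G protein-coupled receptors and their partners 13 rose and 15 fell, and the median was 0.01. Mc2r, the corticotropin receptor, rose from 3.71, 3.91 and 3.58 to 7.34, 7.49 and 7.38 (3.67, SE 0.10), together with Mrap, the accessory protein it needs to reach the cell surface (5.21, SE 0.13). Mc5r, a related melanocortin receptor, rose by 2.27. Receptors for metabolites rose as well, namely the long-chain fatty acid receptor Ffar4 by 2.32 (SE 0.11), the short-chain fatty acid receptor Ffar2 by 2.07, the ketone body and niacin receptor Hcar2 by 1.68 and the lactate receptor Hcar1 by 1.57. Mc2r and Ffar4 began near or under the lowest quartile cut. Against these stood Npy1r and Ednrb, the serotonin receptor Htr2a (-1.20, SE 0.09), the sphingolipid receptor S1pr1 (-0.89) and the lysophosphatidic acid receptor Lpar1 (-0.72). The beta-adrenergic receptors are not analysed here.

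In insulin signalling some related genes moved opposite ways. Of 41 measured genes 11 rose and 16 fell, with a median of -0.04. Insr, the insulin receptor, rose from 8.64, 8.62 and 8.48 to 9.63, 9.74 and 9.81 (1.15, SE 0.08), while Igf1r, the IGF-1 receptor, fell from 8.53, 8.31 and 8.24 to 7.78, 7.69 and 7.53 (-0.70, SE 0.09). The kinase gene Akt2 rose by 0.84 (SE 0.08) and Akt1 fell by 0.62 (SE 0.08). The docking protein Irs3 rose by 1.93 (SE 0.11) and Irs1 fell by 0.57 (SE 0.09). Trarg1, a companion of the glucose transporter GLUT4 in its vesicles, rose by 3.94, Slc2a4, which encodes that transporter, by 2.21, and Pde3b, the phosphodiesterase through which insulin lowers cyclic AMP, by 2.62. Of the binding proteins that hold IGFs, Igfbp5 fell and stood at -1.78 and Igfbp6 at -1.14, and Igfbp2, at 0.10, did not pass the test. Igfbp3, Igfbp4 and Igfbp7 were measured too and are not described here.

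Other families held members that went opposite ways by more than their errors. Bcat2, the mitochondrial aminotransferase of branched-chain amino acids, rose by 2.08 (SE 0.11) and its cytosolic relative Bcat1 fell by 0.62 (SE 0.09). The liver-type glycogen phosphorylase Pygl rose by 2.84 (SE 0.16) and the brain-type Pygb fell by 1.10 (SE 0.10). The aldehyde dehydrogenase Aldh1a7 rose by 4.43 while Aldh1a2, which makes retinoic acid, fell by 1.10 (SE 0.11). The glutamine carrier Slc1a5 rose by 2.11 (SE 0.11) and Slc38a1, another one, fell by 1.29 (SE 0.09). The mitochondrial carrier Slc25a10, for dicarboxylates, rose by 2.49 (SE 0.13) and Slc25a12, for aspartate and glutamate, fell by 1.27 (SE 0.13). The glycerol channel Aqp7 rose by 3.49 (SE 0.15) against the fall of Aqp4. These examples were taken from lists by size, and the families as a whole were not tested.

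In each of the 4 growth pathway lists that follow, more genes fell than rose. In the Wnt pathway 25 of 48 measured genes fell and 3 rose, with a median of -0.30. The number that rose was 1 without undifferentiated replicate 2 and 5 without undifferentiated replicate 3. The antagonist Dkk2 fell from 10.27, 10.20 and 10.20 to 8.20, 8.22 and 8.26 (SE of the difference 0.08). The falls went on with the ligand Wnt5a at -1.84, the decoy Sfrp4 at -1.56 and the receptor Lgr5 at -1.47. Ligands, receptors and antagonists were all among the falls. Fzd4, a receptor, rose by 0.57 (SE 0.10).

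In the TGF-beta, BMP and activin pathway 28 of 51 fell and 5 rose, with a median of -0.35. The BMP antagonist Grem1 fell and stood at -1.12, the ligand Bmp4 at -0.93 and the receptor Tgfbr2 at -0.87 (SE 0.08). Against them stood Acvr1c, given above, and the activin subunit gene Inhbb, which rose by 0.90 (SE 0.13). Of 15 Hedgehog genes 7 fell and 0 rose, with Boc at -0.84 and Gli3 at -0.73. Without undifferentiated replicate 1, undifferentiated replicate 2 or differentiated replicate 2, 1 Hedgehog gene rose, as it did under quantile normalization, and 2 rose after median centring. Of 48 genes of the FGF, PDGF, VEGF and EGF systems 9 rose and 21 fell. Vegfa, which directs vessel growth, rose from between 7.99 and 8.01 to 9.75, 9.67 and 9.85 (1.76, SE 0.08), its relative Pgf by 1.44, and Fgf10, a growth factor of precursor cells, by 1.09. Pdgfrl fell and stood at -1.77, Fgf18 at -1.25 and the stem cell factor receptor Kit at -1.14.

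Lists of fuel metabolism held shares of rises well above the 14.7% of all genes. In the breakdown of the branched-chain amino acids leucine, isoleucine and valine, 23 of 26 measured genes rose and 2 fell, 15 rose at least 2-fold, and the median was 1.16. Aldh6a1, at the end of the valine branch, read 7.88, 7.91 and 7.86 before and 10.47, 10.17 and 10.58 after (2.52, SE 0.12). The valine enzyme Hibch rose by 2.38 (SE 0.08), the Bckdhb subunit of the committing dehydrogenase by 2.22 and Mccc1, of the leucine branch, by 1.96. In the tricarboxylic acid cycle with its anaplerotic enzymes 21 of 23 rose and 1 fell, with a median of 0.91. Citrate synthase (Cs) rose from 9.25, 9.21 and 9.16 to 10.77, 10.48 and 10.91, and the Idh3a subunit of isocitrate dehydrogenase by 1.62. The transaminase Got1 fell by 0.45 (SE 0.11) and Got2, at 0.13, did not pass the test.

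In glycolysis and the pyruvate dehydrogenase step 19 of 32 rose and 3 fell, with a median of 0.73, and the falls numbered 1 without undifferentiated replicate 1, undifferentiated replicate 2 or differentiated replicate 1. Pfkfb3, which makes the activator of phosphofructokinase, rose by 2.38 (SE 0.09), and hexokinase Hk2 rose from 7.54 to 7.70 before to 9.16, 8.50 and 9.27. Subunits of pyruvate dehydrogenase rose, Pdhb by 2.06 and Dlat by 1.54. So did the kinases that switch the complex off, Pdk4 by 2.63, Pdk1 by 1.52 and Pdk2 by 1.30. In glycogen metabolism 12 of 21 rose and 3 fell. The branching enzyme Gbe1 read 7.07, 7.35 and 7.08 before and 10.33, 10.06 and 10.65 after (3.18, SE 0.12), the synthase Gys1 rose by 1.76 and the targeting subunits Ppp1r3b and Ppp1r3c by 2.42 and 2.18.

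NADPH, the reducing power of fatty acid synthesis, comes from the pentose phosphate pathway and malic enzyme. Of 21 genes on that list 15 rose and 2 fell. Malic enzyme Me1 read 9.59, 9.55 and 9.49 before and 12.46, 12.00 and 12.61 after (2.81, SE 0.12), the citrate carrier Slc25a1 rose by 2.22 and transketolase (Tkt) by 1.77. The mitochondrial transhydrogenase Nnt fell by 0.99 (SE 0.10). Of 47 peroxisomal genes 36 rose and 2 fell, 19 rose at least 2-fold, and the median was 0.68. Ephx2, an epoxide hydrolase, rose from 5.45, 5.71 and 5.34 to 9.12, 9.14 and 9.36 (3.71, SE 0.10). Pex11a, which divides peroxisomes, rose by 3.42, the very-long-chain transporter Abcd2 by 2.81 and catalase (Cat) by 2.02 (SE 0.08).

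Genes of the respiratory chain rose with few exceptions. For complex I and its assembly factors 39 of 43 rose and 0 fell (median 0.70). For complexes II and III with cytochrome c 17 of 21 rose and 0 fell (median 0.90), for complex IV 20 of 25 and 0 (median 0.57), and for ATP synthase 16 of 18 and 1 (median 0.61). The fall in ATP synthase was lost without undifferentiated replicate 2 or 3 or differentiated replicate 1 or 3. Ndufb3 of complex I rose from 6.81, 6.83 and 6.88 to 8.35, 8.26 and 8.64, the iron-sulphur protein Uqcrfs1 by 1.49 and cytochrome c (Cycs) by 1.44. Most members moved by less than 2-fold, and 2 tissue-specific subunits stood out, Cox7a1 by 3.62 (SE 0.14) and Cox8b by 2.53 (SE 0.12). Cox8a, the widely expressed counterpart of Cox8b, rose by 1.02. Ndufa4, at 0.06, did not pass the test, whereas its relative Ndufa4l2 rose by 1.95 (SE 0.16).

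Ribosomal proteins of mitochondria mostly rose, and few of those of the cytosol passed the test. Of 77 mitochondrial ribosomal proteins 64 rose and 0 fell, with a median of 0.44 and a range from -0.11 to 1.01. The mean log2 signal over the 77 was 7.33 to 7.42 in undifferentiated and 7.80 to 7.89 in differentiated samples. Of 60 cytosolic ribosomal proteins 2 rose and 2 fell, with a median of -0.03. These small counts were not stable: 6 fell under quantile normalization, 4 fell without differentiated replicate 2, 0 without undifferentiated replicate 2, undifferentiated replicate 3 or differentiated replicate 3, and 1 without undifferentiated replicate 1. Only 1 rose when any of those 5 samples was left out. The largest value there, Rpl39l at 1.47 (SE 0.11), belongs to a relative of a ribosomal protein with a restricted pattern in tissues. Of 24 import genes 15 rose and 1 fell (median 0.39), the fall being lost without undifferentiated replicate 1 or 2 or differentiated replicate 1 or 3, and under quantile normalization. Of 47 lysosomal genes 4 rose and 15 fell, with the protease Ctsk at -1.26 (SE 0.09). Signals of 1015 olfactory receptor genes, which serve as a low-signal reference, had a median difference of 0.07. Of these 50 rose and 8 fell, and the rises numbered 21 without undifferentiated replicate 2 and 32 without differentiated replicate 1. The falls numbered 5 without undifferentiated replicate 3 or differentiated replicate 2. Quantile normalization gave 27 rises and 15 falls.

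**Figure D4:**
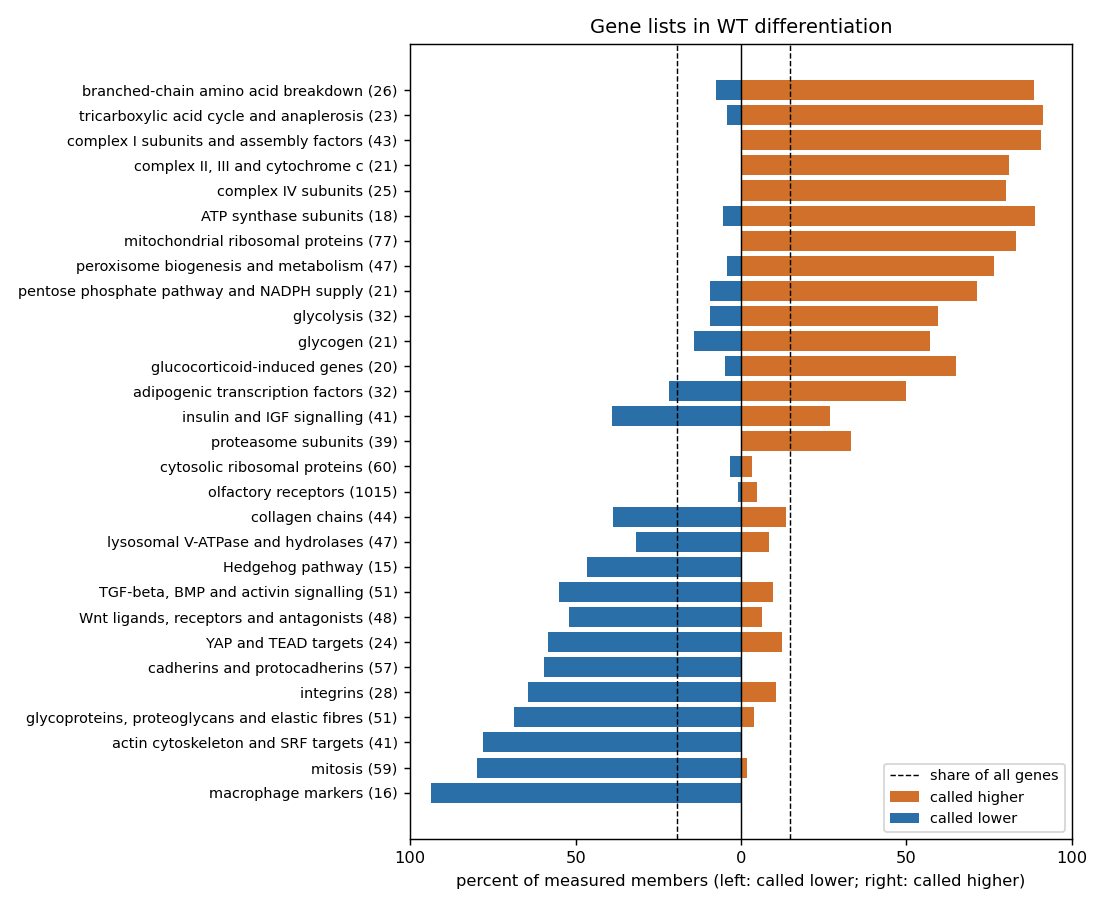
Percent of the measured members of 29 gene lists that rose (right, orange) or fell (left, blue) in WT differentiation, with the number measured in brackets. Dashed lines mark the shares over all genes, 14.7% for rises and 19.4% for falls, and the bars run from branched-chain amino acid breakdown, where 23 of 26 genes rose, to macrophage markers, where 15 of 16 fell.

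Some short elements were more frequent at the starts of mitochondrial genes than over all windows. The YY1 element AAGATGGC stood in 3.19% of all windows. Its share was 3.16% for genes that rose at least 2-fold and 0.771% for those that fell at least 2-fold. In 151 windows of the genes of complexes I and IV, ATP synthase and the mitochondrial ribosome it stood in 15.9%. Of the 24 matches, 17 began at or after the start site and 7 before it. The ETS core CCGGAAGT stood in 11.9% of the same windows against 5.42% of all, and the NRF1 core GCATGCGC in 11.3% against 3.79%. For genes that rose at least 2-fold these shares were 3.16% and 3.94%. Both stood at 8.93% in the windows of the mitotic list below, most of whose genes fell. The CCAAT box, at 39.1% of the mitochondrial windows against 37.4%, was near the share of all windows. Each was searched on both strands.

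Fibroblast matrix and adhesion genes fell widely, while some chains of basement membranes rose. Of 51 matrix glycoproteins, proteoglycans and elastic fibre genes 35 fell and 2 rose, with a median of -0.49. The rises numbered 4 once each array was centred on its median, and 1 without undifferentiated replicate 2 or differentiated replicate 2. Lumican (Lum), which spaces collagen fibrils, fell from 11.04, 11.16 and 11.18 to 9.58, 10.07 and 9.74, and Ogn (osteoglycin) stood at -1.67 (SE 0.09). Of 44 collagen chains 17 fell and 6 rose. Besides Col14a1, the falls included the network collagens Col10a1 (-1.90) and Col8a1 (-1.27) and, at high signal, Col1a2 (-0.72, SE 0.11) and Col1a1 (-0.42, SE 0.07). Among those that rose were chains of basement membranes and of the sheath around cells. Col15a1 rose from 7.14, 7.14 and 6.83 to 9.33, 9.12 and 9.36 (2.24, SE 0.10), Col4a1 by 0.94, Col6a3 by 0.92 and Col4a2 by 0.86. Lama4, a laminin of fat and vessel basement membranes, rose by 0.79, while Col18a1, at 0.05, did not pass the test. Of 10 laminin genes 4 rose and 4 fell. The rises numbered 1 without undifferentiated replicate 2, without differentiated replicate 1 or under quantile normalization, and 2 without undifferentiated replicate 3 or differentiated replicate 3.

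Proteases and inhibitors were both among the falls. Of 27 matrix metalloproteases and inhibitors 10 fell and 4 rose, the latter 2 without undifferentiated replicate 2 or differentiated replicate 1. Mmp2 fell and stood at -1.16 (SE 0.11), and the inhibitors Timp3 and Timp2 at -1.38 and -1.16. Of 28 genes with integrin symbols 18 fell and 3 rose, with a median of -0.55. The alpha chains Itga4 and Itga8 fell, at -1.66 and -1.58, the laminin-binding Itga7 rose by 0.84 (SE 0.13), and Itga5, at 0.00, did not pass the test. Of 57 cadherins and protocadherins 34 fell and 0 rose. Cdh11, the main cadherin of mesenchymal cells, fell from 11.60, 11.55 and 11.62 to 10.24, 10.58 and 10.36, and Cdh8 stood at -1.89 (SE 0.07). The gap junction gene Gja1 fell by 1.35 (SE 0.08).

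Contractile and shape genes fell by smaller amounts. Of 41 genes of the actin cytoskeleton and targets of the serum response factor 32 fell and 0 rose, with a median of -0.41. The non-muscle myosin Myh10 fell from 10.27, 10.29 and 10.19 to 9.29, 9.19 and 9.16 (-1.03, SE 0.08), followed by Myl9 at -1.01 and the filamin Flna at -0.84. The intermediate filament gene Vim, at 0.11, did not pass the test. Of 24 targets of YAP and TEAD 14 fell and 3 rose, with Ccn2 (CTGF) at -0.68 and the adenosine-making Nt5e at 0.87. Of 10 caveolar genes 5 rose and 1 fell. Cav2 rose from 6.70, 6.93 and 6.73 to 9.22, 9.15 and 9.40 (2.47, SE 0.09), and Cav1 by 1.39.

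Division genes fell modestly. Of 59 mitotic genes 47 fell and 1 rose, with a median of -0.46, and the deepest difference was -0.81, so none reached 2-fold. Mki67, the proliferation marker, read 8.53, 8.62 and 8.37 before and 7.62, 7.94 and 7.65 after (-0.77, SE 0.10). The topoisomerase Top2a fell and stood at -0.81 and the spindle motor Kif11 at -0.81. Pttg1 (securin) rose by 0.65 (SE 0.08). Of 48 replication genes 16 fell and 6 rose, with a median of -0.13. Among inhibitors of division Cdkn2c (p18INK4C) rose from 7.54, 7.56 and 7.36 to 9.27, 9.35 and 9.37 (1.84, SE 0.08), and the antiproliferative Btg1 by 1.13.

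Mitotic promoters are known for pairing CCAAT boxes with the CHR element TTTGAA near the start. Both stood in 53.6% of the 56 windows of the mitotic list, against 5.85% of all 19116 windows. CCAAT alone stood in 73.2% against 37.4% and TTTGAA alone in 64.3% against 14.8%, on both strands. Outside the chromosome left out above, the 3 mitotic genes with the deepest falls that hold both before a start are shown. Each has 250 bases, with both elements in capitals.
Top2a: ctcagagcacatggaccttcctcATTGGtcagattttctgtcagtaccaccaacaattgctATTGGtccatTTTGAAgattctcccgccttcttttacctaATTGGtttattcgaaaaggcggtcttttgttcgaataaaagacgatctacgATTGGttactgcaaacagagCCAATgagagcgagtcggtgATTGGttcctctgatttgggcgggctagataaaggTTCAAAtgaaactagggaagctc
Kif11: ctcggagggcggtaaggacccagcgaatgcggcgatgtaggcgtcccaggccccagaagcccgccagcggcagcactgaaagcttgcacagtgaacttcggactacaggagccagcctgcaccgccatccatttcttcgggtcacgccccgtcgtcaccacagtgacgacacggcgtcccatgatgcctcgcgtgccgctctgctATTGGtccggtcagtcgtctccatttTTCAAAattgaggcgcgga
Mki67: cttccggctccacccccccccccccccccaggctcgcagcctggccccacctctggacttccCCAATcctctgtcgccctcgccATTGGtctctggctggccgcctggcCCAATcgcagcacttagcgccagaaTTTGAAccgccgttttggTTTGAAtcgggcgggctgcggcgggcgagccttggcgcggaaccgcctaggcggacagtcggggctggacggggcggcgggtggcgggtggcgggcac

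They lie at chr11:99024190-99024439 on the minus strand, chr19:37376132-37376381 on the plus strand and chr7:135716380-135716629 on the minus strand. The TTTGAA match nearest the start begins 23 bases before it in Top2a, 19 in Kif11 and 98 in Mki67. Top2a holds 6 matches to CCAAT, Mki67 has 3 and Kif11 has 1.

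Cell-type markers were read to see what the cultures held. All 11 measured adipocyte markers rose, with differences from 1.92 to 6.03, and their mean log2 signal was 6.41 to 6.46 in undifferentiated and 10.46 to 10.71 in differentiated samples. Of 12 fibroblast markers 10 fell, the mean going from 10.62 to 10.65 to 10.04 to 10.13, so fibroblast signals stayed high after differentiation. Vim and Pdgfra (-0.18) did not pass the test. Of 10 preadipocyte markers 6 fell and 1 rose, led by Cd34 (-1.44, SE 0.09), and the rise was lost without undifferentiated replicate 1 or 2 or differentiated replicate 1. In bulk samples fewer cells of a type and less RNA per cell cannot be told apart, here and in what follows.

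Macrophage genes were read at high signal in the undifferentiated cultures, and 15 of 16 markers fell, with a median of -1.03. Their mean log2 signal was 8.54 to 8.64 before and 7.26 to 7.53 after. Csf1r, the receptor for the macrophage growth factor, fell from 10.06, 9.94 and 10.07 to 8.31, 8.59 and 8.40 (-1.59, SE 0.09). The lectin Clec4n fell and stood at -3.55, lysozyme (Lyz2) at -2.32 and Adgre1 (F4/80) at -1.02. The complement subunit C1qa, from the complement list and not this one, stood at -0.61. The lysosomal Cd68, at -0.10 (limma, adjusted p = 0.38), did not pass the test. The falls within the list were thus unequal, and their part in the falls of other lists, such as the integrin Itgam (-1.04) and the protease Ctsk, was not tested.

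Neural and glial markers were read as well: 8 of 11 fell, led by Gfap and Fabp7. Gfap, the filament of astrocytes, read 7.94, 8.01 and 7.73 before and a mean of 5.68 after (-2.21, SE 0.14), and Fabp7, a fatty acid carrier of glia, fell by 2.14 (SE 0.15). Sox10 fell and stood at -0.28 (SE 0.08), a call lost without undifferentiated replicate 1, and S100b stood at -0.33 (SE 0.10), a call lost without undifferentiated replicate 2 or differentiated replicate 2. Of 10 endothelial markers 4 fell and 1 rose, with Kdr at -0.97 and Pecam1 and Cdh5 not passing the test at -0.01 and -0.03. Of 10 smooth muscle markers 4 fell and 0 rose. Of 10 cardiac markers 5 fell and 1 rose, and of the skeletal muscle, skeletal tissue, epithelial and blood lists between 1 and 2 members moved in each direction. The single rises in the endothelial, cardiac, skeletal muscle, skeletal tissue and epithelial lists were each lost without undifferentiated replicate 2. Among 15 genes of brown or beige fat 8 rose and 1 fell. Beside Cox7a1, Cox8b and Elovl3, Cidea rose by 0.62 (SE 0.10) and Ucp1, the uncoupling protein, by 0.38 (SE 0.09) at a signal of 3.87 to 4.07, under the lowest quartile cut. Dio2, which activates thyroid hormone, fell by 1.94 (SE 0.09), and Prdm16, at 0.07, did not pass the test.

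MicroRNA genes had probe sets of their own for 296 symbols, of which 54 fell and 20 rose. The rises numbered 10 without undifferentiated replicate 1, 12 without undifferentiated replicate 2 and 11 without differentiated replicate 1. This list was added after values had been seen. A probe set of this kind reads the precursor or its host transcript and not the mature microRNA. A mature microRNA recognises targets through its seed, bases 2 to 8, shown here in capitals in the RefSeq mature sequences. These were matched for 270 of the 296 genes, with 1 chromosome left out of the matching. The arms shown are those of 4 genes that rose, 3 that fell and 1 that shares a seed with Mir708. They were picked after their values were seen, and other genes, such as Mir376b and Mir340, changed by as much as some of those shown.
miR-708-5p: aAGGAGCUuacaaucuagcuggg
miR-28a-5p: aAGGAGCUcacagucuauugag
miR-193a-3p: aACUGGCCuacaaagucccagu
miR-365-3p: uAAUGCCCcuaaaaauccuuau
miR-103-3p: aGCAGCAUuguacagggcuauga
miR-490-3p: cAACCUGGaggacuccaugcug
let-7c-5p: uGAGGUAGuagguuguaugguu
miR-218-5p: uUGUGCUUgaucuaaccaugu

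Mir708 had the largest rise of any microRNA gene, from 5.10, 5.28 and 4.69 to 6.94, 6.81 and 7.03 (1.90, SE 0.14; limma, adjusted p = 9.21e-09). Its neighbour in gene order, Tenm4, which encodes a large cell-surface protein, rose by 1.54 (SE 0.09). Whether the probe set of Mir708 reads the Tenm4 transcript was not tested. The seed of miR-708-5p is also that of miR-28a-5p, whose gene Mir28a fell by 0.35 (SE 0.09). Mir193a rose by 0.79 (SE 0.12) and Mir365-2 by 0.76 (SE 0.12). Mir365-1, which has the same miR-365-3p sequence, stood at 0.08 and did not pass the test. Mir103-1 rose by 0.72 (SE 0.13), and the 2 other measured genes with the seed of miR-103-3p did not pass the test.

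The largest fall was that of Mir490, from 5.24, 4.89 and 4.50 to 3.35, 3.84 and 3.61 (-1.28, SE 0.16). Its neighbours in gene order, Chrm2, a muscarinic receptor, and Ptn (pleiotrophin), fell, at -1.61 (SE 0.08) and -1.89 (SE 0.08). Whether the probe set of Mir490 reads the transcript of a neighbour was not tested. Mirlet7c-1 fell by 1.00 (SE 0.18), and Mir218-1 stood at -0.94 (SE 0.13). Mir218-2, which has the same miR-218-5p sequence, stood at -0.30 and did not pass the test. Of the 9 measured genes with the let-7 seed GAGGUAG 4 fell and 1 rose, and of the 6 with the miR-181 seed ACAUUCA 4 fell and 0 rose.

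Falls of microRNA genes were frequent at the imprinted Dlk1 to Dio3 interval, whose maternal copy makes long non-coding RNAs that carry microRNAs and small nucleolar RNAs. Between Dlk1 and Dio3 in gene order 48 genes were measured, 29 fell and 0 rose, with a median of -0.37. Of the 40 microRNA genes there 23 fell, and of the 256 elsewhere 31 fell and 20 rose. Mir376b went from 5.17, 4.70 and 4.48 to 3.74, 3.51 and 4.27 (-0.94, SE 0.18), Mir380 stood at -0.79 and Mir154 at -0.78. The non-coding RNAs Meg3 and Rian fell, at -0.46 (SE 0.09) and -0.64 (SE 0.10). Dlk1, the preadipocyte factor at the edge of the interval, fell by 0.27 (SE 0.08), a call lost without undifferentiated replicate 1 or differentiated replicate 3. These genes share transcripts, so they are not independent of one another.

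Genes that changed strongly often lay next to each other. In the RefSeq order of 19919 measured genes, 91 of the 519 genes that rose at least 2-fold (17.5%) had an adjacent measured gene that did too, against 5.11% of all genes. For falls of at least 2-fold it was 39 of 397 (9.82%) against 3.88%. The 43 runs of rising genes held duplicates and unlike genes. Orm1, Orm3 and Orm2 rose by 5.20, 1.99 and 2.60, and Arxes2 and Arxes1 by 2.55 and 3.21. Members of such pairs are alike in sequence, and how far their probes cross-read was not tested. Tenm4 with Mir708 was also a rising run, and Chrm2, Mir490 and Ptn a falling one. Whether the microRNA probe sets there read a neighbour's transcript was not tested.

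Other runs joined genes of unlike sequence. Cebpa stood beside the amino acid exchanger Slc7a10, which rose from 5.25, 4.81 and 5.43 to 7.25, 7.19 and 7.44 (2.13, SE 0.13), and the receptor-like Lrp3 (1.17, SE 0.10). Plin1 stood beside Pex11a and Wdr93, at 4.58, 3.42 and 2.10, Ffar4 beside Rbp4, at 2.32 and 3.51, and Hsd11b1 beside G0s2, at 1.26 and 4.10. The transcription factor Klf15, at 1.15 (SE 0.10), stood beside Aldh1l1, a folate enzyme that yields NADPH, at 2.61. Among the 19 runs of falling genes were Omd with Ogn, at -1.47 and -1.67, the channel Trpc6 with Pgr, and Lyz2 with Lyz1. The order of genes was taken from a table of another source than the array's annotation.

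Finally, the WT response was set against that of D1D2KO cells, differentiated in the same way, by testing the difference between the 2 responses. The targeted genes were still read in the cells labelled D1D2KO. Dgat2 read 5.44 to 5.51 before and 8.37 to 8.66 after differentiation there, and Dgat1 read 5.56 to 5.66 before and 7.75 to 8.26 after. All of these lie below the WT samples of the same state, but both signals were higher after differentiation in the knockout too. No label says whether the probe sets lie in the deleted parts, and they therefore do not check the genotype. Of 19938 genes 291 passed (1.46%). Of the 6794 genes that rose or fell in WT cells 254 passed, which means that for the other genes a difference was not detected with 3 samples a group, and not that there was none. Among those 254, 104 rose more in D1D2KO cells and 31 less, and 87 fell deeper and 32 less. The count was 159 without WT undifferentiated replicate 1, 176 without WT undifferentiated replicate 2 and 449 without WT differentiated replicate 3. It was 168, 187 and 171 without D1D2KO undifferentiated replicates 1, 2 and 3, and 185 and 190 without D1D2KO differentiated replicates 1 and 2. The difference uses the same WT samples as the WT response, so a WT sample that reads high enters both.

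Of the 25 largest WT rises 9 passed, 8 with a larger rise in D1D2KO cells and 1 with a smaller one. Fabp4, the fatty acid carrier of the cytosol, had rises of 5.24 (WT) and 6.70 (D1D2KO), Car3 of 4.77 and 5.69, and Tshr of 4.53 and 5.49. The exception was Dgat2, one of the targeted genes, at 4.27 and 3.07. Thrsp, at 6.05 and 5.70, and Agpat2, at 4.28 and 4.65, did not pass. Of the 25 largest falls 3 passed. Brinp3 stood at -2.30 in WT and -0.89 in D1D2KO cells, Ednrb stood at -2.40 and -1.67, and C1qtnf3 at -2.23 and -2.88. Chrm2 and Mir490, adjacent in gene order, also passed, and whether their probe sets read a shared transcript was not tested. Chrm2 fell and stood at -1.61 in WT cells against -0.39 in D1D2KO cells (limma, adjusted p of the difference = 0.000103), and Mir490 at -1.28 against 0.09 (adjusted p = 0.00515), whereas Ptn beside them stood at -1.89 and -1.79 (adjusted p = 0.853).

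**Figure D5:**
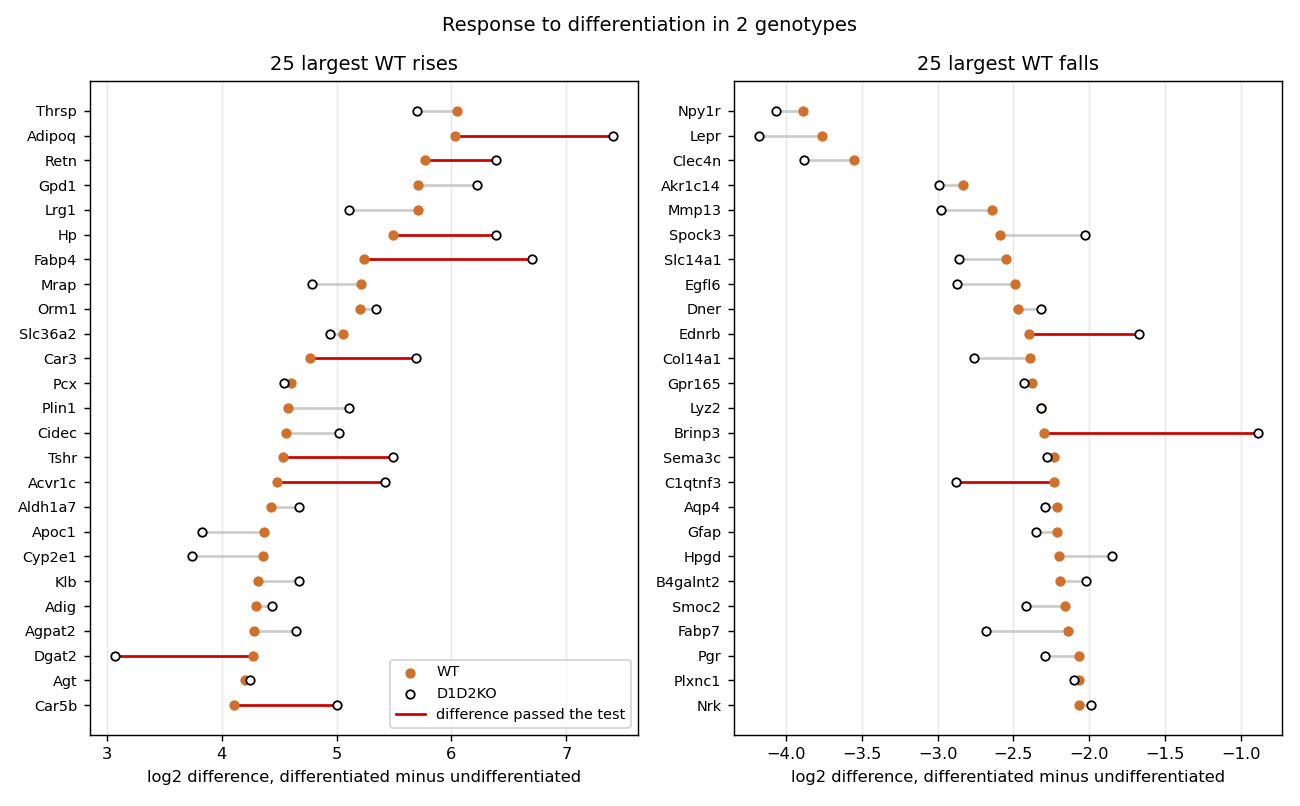
Log2 difference between differentiated and undifferentiated cells in WT (orange) and D1D2KO (open) for the 25 genes with the largest WT rises (left) and falls (right). Red lines join the values of genes whose difference between the 2 responses passed the limma test, 9 on the left, as for Fabp4 at 5.24 and 6.70, and 3 on the right, as for Brinp3 at -2.30 and -0.89.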

How the data were processed

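RNA of the 12 cultures was hybridised singly to expression arrays. The authors deposited 1 table of log2 values per probe set, per the labels and the values themselves, which ran from 1.15 to 14.17. The background correction, normalization and build behind it are not given in the sources used here, and arrays carry no read depth, so their number limits the precision. Of 35556 probe sets, 21789 had 1 gene symbol, 1621 several and 12146 none in the platform annotation, and 21698 matched RefSeq. For the 999 genes with several probe sets, the 1 of highest mean signal was kept, which left 19938 genes. No further normalization was applied.

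All 4 groups of 3 entered 1 limma fit (limma 3.58.1, R 4.3.3; lmFit and eBayes), with Benjamini-Hochberg adjustment over all 19938 genes and a threshold of 0.05. The scripts were tested on simulated data. Replicate numbers were not treated as pairs: deviations of WT samples with the same number correlated between -0.0125 and 0.129, and those of unequal number between -0.163 and 0.148. In D1D2KO cells the values were 0.101 to 0.176 and -0.147 to 0.0522, a hint of pairing there that the labels do not state. Summaries and figures used Python 3.11.15, pandas 2.3.3 and matplotlib 3.10.9.

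The members and lists were chosen with earlier results of these data known, and the lipid synthesis, cytokine, microRNA and Dlk1 to Dio3 lists after their values were seen. Named genes were the 25 largest rises and falls with separate groups, the 10 largest moderated t each way, cell-type markers, Dgat1 and Dgat2, and per list up to 6 called genes of largest difference and up to 3 others of highest signal. Further genes named for a sample, a sequence, a neighbour or a family contrast were chosen after their values were seen. Alternatives were centring, quantile normalization, a signal filter, other probe set rules, other eBayes settings, array weights, a replicate block, a minimum size and leaving out each sample.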

Additional observations from a re-analysis of the deposited data

Results flagged for a closer look

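In 12 of the genes with the largest WT changes, the response of D1D2KO cells differed from that of WT cells by the limma test of the difference. The D1D2KO response minus the WT response was 1.45 on the log2 scale for Fabp4, 1.41 for Brinp3, 1.38 for Adipoq, 0.96 for Tshr, 0.94 for Acvr1c, 0.92 for Car3, 0.89 for Hp, 0.89 for Car5b, 0.72 for Ednrb and 0.62 for Retn. It was -0.66 for C1qtnf3 and -1.20 for Dgat2. Brinp3 and Ednrb fell in WT cells, so a positive value there is a shallower fall.

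Probe sets with no gene symbol stood outside the comparison. Of these, 712 passed the same limma threshold in WT differentiation, 360 upward and 352 downward, and 91 of the former and 51 of the latter moved by 2-fold or more, the extremes being 4.77 and -2.26. Of the 1621 probe sets with several symbols 87 rose and 93 fell, 8 and 6 of them at least 2-fold, with extremes of 3.48 and -1.42. Which transcripts they read was not analysed here.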

How the results depend on the processing

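The count of genes that rose or fell in WT differentiation was 6794. It ranged from 5442 (genes above the median signal only) to 7451 (every single-gene probe set) over the planned settings, was 6902 with a replicate block and 6252 with the 6 WT samples alone, and, apart from the fit of every single-gene probe set, where signs were not compared, no gene called in both a setting and the reported fit changed sign. A required difference of at least 1 left 916. Leaving out 1 sample at a time gave 5676 to 7152. Centring each array on its median moved the share of rises among the called from 43.2% to 47.3%. The count of genes whose response differed between D1D2KO and WT cells was 291, and it was 604 with array weights, 537 over genes above the median signal, 472 with a trended eBayes, 39 with a difference of at least 1 and 265 with the replicate block. Leaving out 1 sample at a time gave 159 to 449. Same-numbered samples did not correlate over 0.1 in every pair, so the block was an alternative only, although all 3 D1D2KO pairs did. The cause of these shifts was not tested. With 3 samples a group and a median SE of 0.096, small differences went undetected, and signals near the array's floor understate changes.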
